A study of Mus musculus with 8 samples.

Results

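Sorted cells of healing mouse skin were compared between day 15 and day 12 after wounding. The comparison used 4 of the 8 libraries of the series, those whose value columns are headed with day 12 (numbers 2 and 3) and with day 15 (numbers 1 and 3). All 4 came from Sm22-Cre;tdTomato mice of mixed background, in which cells that have used the Sm22 promoter, active in smooth muscle and other contractile cells, carry the red fluorescent protein tdTomato. Viable cells with high tdTomato were sorted from collagenase-digested wounds. Days 12 and 15 share the genotype, the sort and the SMART-seq2 protocol (full-length cDNA from little RNA). Besides time after wounding they differ in sex-linked transcripts, given below, so day cannot be told apart from the sex of the mice. The label follows past promoter activity and is not specific to myofibroblasts, and other cells that use Sm22 or that pass the sort with them can enter a library. The 15062 genes of 43346 that reached 1 TPM in 2 or more of the 8 libraries were tested. TPM are transcripts scaled by their length to a fixed sum per library.

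In a skin wound, fibroblasts become myofibroblasts, which carry smooth muscle actin, pull the edges together and lay down matrix. Macrophages and other leukocytes clear debris and release cytokines in the inflammatory phase, and their number falls as the wound matures. In large mouse wounds, hair follicles and then fat cells can form anew in the centre, and the series concerns the origin of those fat cells from myofibroblasts. The comparison asks how the labelled cells differ between these early days.

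In the 4 libraries 13604 to 14147 genes reached 1 TPM. TPM keep no record of depth, which is unknown here, so no interval for counting error is given. Whether the 2 libraries of a day are from different mice is not stated, and p-values measure only the spread between these libraries. Across the tested genes, which are not independent replicates, Pearson's r of log2(TPM + 1) was 0.980 between the libraries of day 12 and 0.974 between those of day 15. Across the days it ran from 0.958 to 0.978, and the highest of these, between library 3 of day 12 and library 3 of day 15, was above the value within day 15. Library 1 of day 15 stood apart in its sex-linked transcripts and in its Schwann cell and pericyte markers, as given with those markers. The markers of fibroblasts were present in all 4 libraries. For 10 genes their summed level was 42240 and 57326 TPM on day 12 and 56120 and 60566 TPM on day 15. Of the genes that mark contraction, Acta2, smooth muscle actin, was at 1609 and 1353 TPM on day 12 and 990 and 539 TPM on day 15. Tagln, the gene of Sm22 itself, was at 254 and 175 TPM on day 12 and 200 and 128 TPM on day 15, and its libraries overlapped.

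Between days 12 and 15, few genes reached an adjusted p under 0.05 with 2 libraries a day. With limma's moderated test over all 8 libraries and Benjamini-Hochberg adjustment over the 15062 genes, 13 genes rose (0.0863% of the tested genes) and 11 fell (0.0730%). The adjusted p of the 24 ran from 0.0313 to 0.0484, and all 24 lie near the threshold of 0.05. An unadjusted p under 0.05 was reached by 1316 genes. The median log2 change over all tested genes was 0.02. It was -0.085 without library 1 of day 15 and 0.117 without library 3 of day 15. The day 15 libraries were thus offset in opposite directions, and the 0.02 does not show that the libraries share a scale. Both libraries of day 15 lay above both of day 12 for 19.0% of the tested genes and below both for 17.8%, which are the shares against which the gene groups are read. The libraries were apart and the change was at least 2-fold for 1.86% of genes in the higher direction and for 1.99% in the lower. A permutation test of 2 libraries against 2 cannot go below an exact 2-sided p of 0.333, so single genes rest on the spread that limma shares between genes. Fitted on the 4 libraries of these days alone, limma called no gene, with a smallest adjusted p of 0.109 and 1334 genes at an unadjusted p under 0.05. Without library 1 of day 15 it called 0 genes, with 890 at an unadjusted p under 0.05, and without library 3 of day 15 it called 18 genes, of which 3 were among the 24. It called 1 gene without library 2 of day 12, 2 without library 3 of day 12, 4 after quantile normalization, 3 after median-ratio scaling and 3 with no filter on low values. In each of these fits all 24 genes kept their direction. All 24 had the libraries of the days apart and the fits reuse the libraries that chose them, so this is no independent check.

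**Figure D1:**
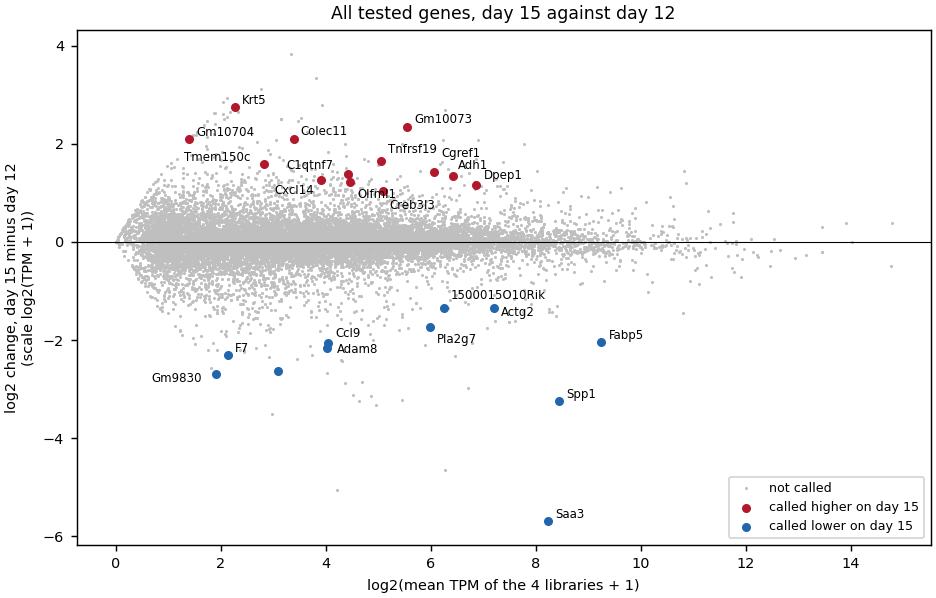
Each point is 1 of the 15062 tested genes, with log2(mean TPM of the 4 libraries + 1) on the x axis and the log2 change from day 12 to day 15 on the y axis. The 13 genes called higher are red and the 11 called lower are blue, with Saa3 lowest at -5.70 and Krt5 highest of those called at 2.75.

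Of the cytokine and chemokine list, Spp1, Saa3 and Ccl9 fell. Spp1 encodes osteopontin, a phosphoprotein secreted by macrophages and by wound fibroblasts that binds integrins. It was at 851 and 408 TPM on day 12 and at 56.7 and 65.6 TPM on day 15. The day 15 libraries were close to each other and both far below day 12, and the log2 change was -3.25 (SE 0.30, adjusted p = 0.0313 by limma), the lowest adjusted p of the comparison. Saa3 encodes an acute-phase serum amyloid A protein made locally in inflamed tissue. It was at 951 and 232 TPM on day 12 and at 11.4 and 5.64 TPM on day 15. The day 12 libraries differed widely from each other, and both were far above day 15. Its log2 change was -5.70 (SE 0.78, adjusted p = 0.0484). Ccl9, a CC chemokine that attracts myeloid cells, was at 30.4 and 20.8 TPM on day 12 and at 4.63 and 6.03 TPM on day 15. It fell by 2.06 on the log2 scale (SE 0.27, adjusted p = 0.0484). In bulk libraries such as these, fewer cells of a type and less RNA per cell cannot be told apart.

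Upstream sequences of these genes are shown because Saa3, Ccl9 and Spp1 fell together, and C/EBP and AP-1 factors are known regulators of inflammatory genes. The windows are the 250 bases before the RefSeq transcription start on GRCm38.p6, written 5′ to 3′ on the strand of the gene. Saa3 is on the minus strand at chr7:46715677-46715926, Ccl9 on the minus strand at chr11:83578637-83578886, Adam8, a called gene described after them, on the minus strand at chr7:139992563-139992812, and Spp1 on the plus strand at chr5:104434861-104435110. Capitals mark matches on either strand to TTGCNNAA, a C/EBP motif, or to TGANTCA, where N is any base. TGANTCA is a loose AP-1 pattern, since the usual AP-1 site has C or G at the N.
Saa3: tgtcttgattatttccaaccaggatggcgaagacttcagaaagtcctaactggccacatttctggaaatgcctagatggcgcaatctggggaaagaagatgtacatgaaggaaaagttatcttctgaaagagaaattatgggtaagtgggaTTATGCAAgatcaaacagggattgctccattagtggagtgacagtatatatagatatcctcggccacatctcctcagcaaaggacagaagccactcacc
Ccl9: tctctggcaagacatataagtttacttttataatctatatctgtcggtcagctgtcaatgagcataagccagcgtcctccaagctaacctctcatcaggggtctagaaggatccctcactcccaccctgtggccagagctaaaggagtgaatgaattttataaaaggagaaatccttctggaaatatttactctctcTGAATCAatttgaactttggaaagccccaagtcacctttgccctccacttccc
Adam8: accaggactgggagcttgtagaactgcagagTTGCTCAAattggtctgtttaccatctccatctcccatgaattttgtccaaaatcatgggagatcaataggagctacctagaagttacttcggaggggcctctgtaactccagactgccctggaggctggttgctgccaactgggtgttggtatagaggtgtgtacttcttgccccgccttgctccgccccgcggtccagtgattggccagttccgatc
Spp1: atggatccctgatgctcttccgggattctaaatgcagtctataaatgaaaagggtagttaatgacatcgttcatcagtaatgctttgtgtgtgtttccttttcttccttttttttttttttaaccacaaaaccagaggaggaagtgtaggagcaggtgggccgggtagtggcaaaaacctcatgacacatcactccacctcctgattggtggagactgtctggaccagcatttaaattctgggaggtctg
The C/EBP motif matched 99 bases before the start of Saa3 and 219 bases before that of Adam8. The loose AP-1 pattern matched 53 bases before the start of Ccl9, as TGAATCA, which has A in place of C or G. This Spp1 window held neither, while the window of a second Spp1 start, which is not shown, held the C/EBP motif. A match on either strand is common by letters alone. C/EBP letters stood in 9.56% of 32851 windows over all genes, and letters of the loose AP-1 pattern in 6.75%. Windows with C or G at the N were not counted apart. Of the genes that fell, 6 of 11 had a window, and 3 of their 7 windows held the C/EBP motif and 1 the loose AP-1 pattern. All of these matches were in the genes shown, Saa3, Adam8, Spp1 and Ccl9. The other fallen genes with a window held neither the motif nor the pattern and are not shown. Of the genes that rose, 11 of 13 had a window, and 0 of their 16 windows held the C/EBP motif. The loose AP-1 pattern stood in 3 of these windows, in Cgref1 and Creb3l3. These matches describe letters in the windows and were tested against nothing.

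Among all 41 tested cytokines and chemokines 3 fell, 1 rose and 37 were not called, and the 13 with both day 15 libraries above day 12 equalled the 13 with both below. Other acute-phase and chemokine transcripts lay lower without being called. Cxcl5, a neutrophil attractant, was at 60.8 and 20.3 TPM on day 12 and 2.93 and 3.40 TPM on day 15 (log2 change -3.12, SE 0.56, adjusted p = 0.10 by limma). Hp, haptoglobin, which binds free haemoglobin, was at 269 and 29.5 TPM on day 12 and 3.73 and 1.73 TPM on day 15. Ccl6, a chemokine of myeloid cells, was at 90.4 and 97.9 TPM and then 16.5 and 27.3 TPM. Lcn2, a siderophore-binding acute-phase protein, was at 1.54 and 1.63 TPM on day 12 and was listed at 0 in both day 15 libraries. All 4 had their libraries apart. On the other side, Il6, an inflammatory cytokine, was at 3.73 and 1.78 TPM on day 12 and 16.9 and 34.5 TPM on day 15 (log2 change 2.80, SE 0.72, adjusted p = 0.216). Il33, an alarmin of stromal cells, was at 8.45 and 15.08 TPM and then 20.1 and 30.0 TPM, and Ccl19, a chemokine of lymphoid stroma, at 3.77 and 1.6 TPM and then 19.3 and 5.77 TPM. The cytokine list therefore held members far apart in both directions, and its median log2 change of -0.07 turned positive without library 2 of day 12 or without library 1 of day 15.

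Fabp5, Pla2g7 and Adam8 also fell. Fabp5, a fatty acid binding protein of macrophages, keratinocytes and other cells, was at 936 and 1016 TPM on day 12 and at 196 and 282 TPM on day 15. The replicates of each day were close and the log2 change was -2.05 (SE 0.28, adjusted p = 0.0484 by limma). Pla2g7, the secreted platelet-activating factor acetylhydrolase, was at 106 and 85.7 TPM on day 12 and at 24.1 and 32.3 TPM on day 15 (log2 change -1.74, SE 0.20, adjusted p = 0.0467). Adam8, a membrane metalloprotease of myeloid cells, was at 30.4 and 21.21 TPM on day 12 and at 4.39 and 5.46 TPM on day 15 (log2 change -2.16, SE 0.29, adjusted p = 0.0484). For each of these genes the libraries of the days were apart by more than the spread within a day.

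Markers of macrophages and leukocytes were lower on day 15 too. None of the 29 tested markers was called, 23 lay lower in both day 15 libraries, none lay higher in both, and 16 of the 23 were lower by at least 2-fold. Their median log2 change was -1.06, beside 0.02 over all genes, and it stayed between -1.35 and -0.67 under every alternative run. Their summed level was 8969 and 6139 TPM on day 12 and 2805 and 4508 TPM on day 15, and no marker of the list was at 0 in all libraries. Lyz2, lysozyme, was at 3163 and 2100 TPM on day 12 and 837 and 1062 TPM on day 15. Cd68, a lysosomal glycoprotein of macrophages, was at 271 and 178 TPM and then 54.5 and 91.3 TPM (log2 change -1.62, SE 0.30, adjusted p = 0.102 by limma). Ctss, cathepsin S of antigen-presenting cells, was at 532 and 444 TPM and then 128 and 223 TPM. Ptprc, the leukocyte antigen CD45, was at 11.6 and 8.56 TPM and then 3.02 and 5.88 TPM. The part of these cells in the falls of Spp1, Ccl9, Fabp5, Pla2g7 and Adam8 was not tested. Neither Marco nor Arg1, which are outside that list and were chosen after their values were seen, was called: Marco, a scavenger receptor, was at 5.54 and 4.15 TPM and then 0.27 and 0.54 TPM, and Arg1, arginase, was at 7.84 and 2.93 TPM and then 0.29 and 0.27 TPM. Hmox1, haem oxygenase, is also outside the marker list and belongs to the retinoid and detoxification list. It was at 349 and 283 TPM on day 12 and 111 and 122 TPM on day 15, just beyond the threshold (log2 change -1.42, SE 0.21, adjusted p = 0.0508 by limma).

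**Figure D2:**
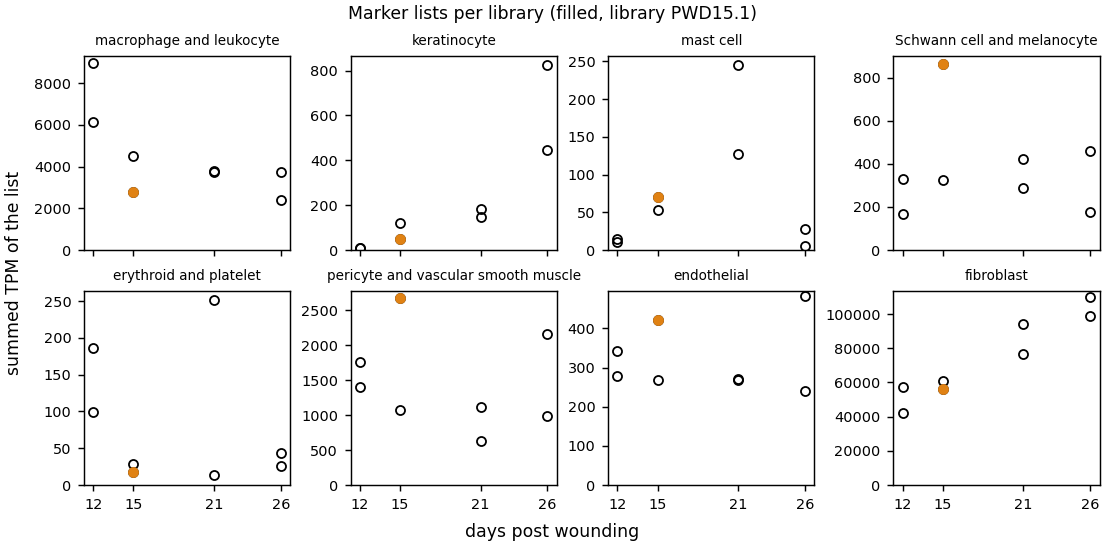
Each panel gives the summed TPM of a marker list (y axis, linear, from 0) in each of the 8 libraries against the day post wounding (x axis), with library 1 of day 15 filled. Macrophage and leukocyte markers sum to 8969 and 6139 TPM on day 12 and to 2805 and 4508 TPM on day 15, while keratinocyte and mast cell markers are higher on day 15 in both libraries.

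Among the contractile genes Actg2 fell. Actg2, an actin of smooth muscle that is also on the list of pericyte and vascular smooth muscle markers, was at 218 and 205 TPM on day 12 and at 85.4 and 78.9 TPM on day 15. Replicates were nearly equal within each day and the log2 change was -1.35 (SE 0.17, adjusted p = 0.0484 by limma). Of the 27 contractile and actin-binding genes tested, 1 fell and 26 were not called, 13 lay lower in both day 15 libraries and 2 higher, and the median log2 change was -0.26. Zyx, zyxin of focal adhesions, was at 202 and 197 TPM on day 12 and 78.3 and 112 TPM on day 15 (log2 change -1.08, SE 0.21, adjusted p = 0.102). Cnn1, calponin, was at 14.0 and 10.8 TPM and then 3.51 and 2.84 TPM, and Myh9, a nonmuscle myosin heavy chain, was at 65.1 and 48.7 TPM and then 45.4 and 32.1 TPM. Acta2, given above, had a log2 change of -1.01 (SE 0.34, adjusted p = 0.377) with libraries apart. The summed level of the pericyte and vascular smooth muscle markers was 1762 and 1408 TPM on day 12 and overlapped with day 15, where library 1 held 2670 TPM and library 3 held 1067 TPM.

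Of the other genes that fell, 3 are described here, 1500015O10Rik, F7 and Gm9830. 1500015O10Rik, a gene model also known as augurin, was at 102 and 114 TPM on day 12 and 39.5 and 44.4 TPM on day 15 (log2 change -1.35, SE 0.15, adjusted p = 0.0464 by limma). F7, coagulation factor VII, was at 5.01 and 7.60 TPM and then 0.34 and 0.56 TPM (log2 change -2.31, SE 0.30, adjusted p = 0.0484). Gm9830 was at 6.12 and 4.92 TPM on day 12 and was listed at 0 in both libraries of day 15. Reads can be split between near-identical copies, so the values of Gm9830, a gene model, are uncertain.

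The 13 genes that rose had an adjusted p between 0.0467 and 0.0484 by limma. C1qtnf7, a secreted protein of the C1q and TNF superfamily, was at 9.75 and 12.1 TPM on day 12 and at 29.3 and 30.8 TPM on day 15. Its day 15 libraries were close to each other and the log2 change was 1.38 (SE 0.16, adjusted p = 0.0467 by limma), the lowest adjusted p of those that rose. Dpep1, a membrane dipeptidase, was at 63.6 and 78.4 TPM on day 12 and at 167 and 154 TPM on day 15 (log2 change 1.17, SE 0.17). Adh1, an alcohol dehydrogenase that also oxidises retinol, was at 50.9 and 43.8 TPM and then 128 and 116 TPM (log2 change 1.34, SE 0.17). Both genes had replicates close to each other within each day. Cxcl14, a chemokine of skin fibroblasts and epithelium, was at 7 and 8.74 TPM and then 18.9 and 21.6 TPM (log2 change 1.26, SE 0.17). Creb3l3, a membrane-bound transcription factor known from liver, was at 21.25 and 21.1 TPM and then 42.3 and 46.9 TPM (log2 change 1.04, SE 0.14). Cxcl14 was the single member of the cytokine list to rise, and Creb3l3 had the smallest change of those called.

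Among the remaining rises, Cgref1, a secreted EF-hand protein, was at 28.5 and 42.7 TPM on day 12 and at 87.7 and 104 TPM on day 15 (log2 change 1.43, SE 0.19). Olfml1, an olfactomedin-like secreted protein, was at 10.95 and 13.6 TPM and then 29.9 and 29.7 TPM (log2 change 1.22, SE 0.17). Tnfrsf19, a receptor of the TNF family also called Troy, was at 11.9 and 18.6 TPM and then 53.3 and 45.4 TPM (log2 change 1.66, SE 0.24). For these the day 15 libraries lay well above both of day 12. Colec11, a collectin that recognises sugars and starts the lectin pathway of complement, was at 3.41 and 2.48 TPM and then 18.4 and 13.6 TPM (log2 change 2.10, SE 0.26), and Tmem150c, a membrane protein, was at 1.99 and 3.17 TPM and then 10.2 and 8.97 TPM (log2 change 1.58, SE 0.22). All of these had an adjusted p of 0.0484 by limma. Gm10073 was at 16.8 and 12.1 TPM and then 70.5 and 83.5 TPM, and Gm10704 was listed at 0 on day 12 and was at 2.75 and 3.85 TPM on day 15. Like the other gene models with a Gm symbol they may share reads with parent genes, and their values are uncertain. Krt5, a keratin of basal keratinocytes, is given with the keratinocyte markers.

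**Figure D3:**
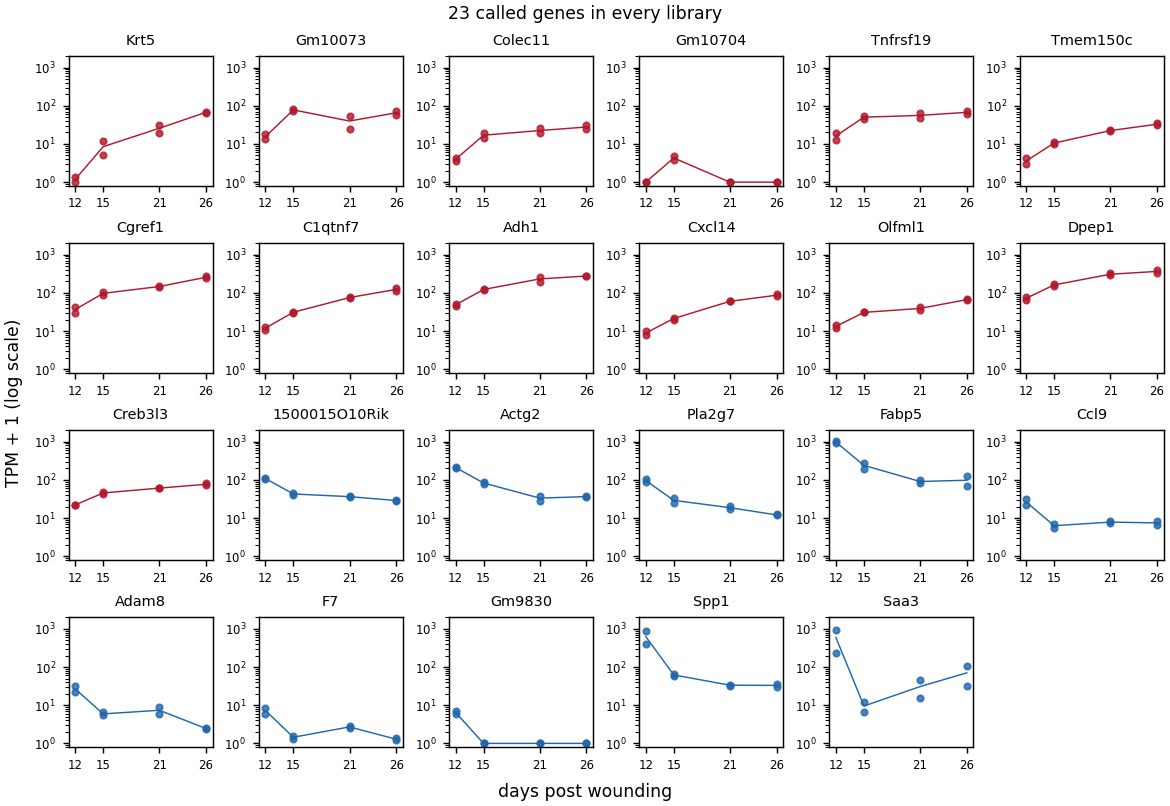
TPM + 1 on a log axis (y) against day post wounding (x) for 23 of the 24 called genes, with 1 point per library and a line through the mean of each day. The 13 red panels rose and the 10 blue panels fell between day 12 and day 15, with the libraries of the days apart in each.

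Later days are given for these genes, although the day 15 means they are set against are those that the calls used. Of the 13 genes that rose, 11 had a day 21 mean above their day 15 mean and 11 a day 26 mean above it. Of the 11 that fell, 5 had a day 21 mean below their day 15 mean and 8 a day 26 mean below it. From day 21 to day 26, which share no library with the comparison, 12 of the 13 had a log2 change above 0. For 7 of the 11 that fell it was below 0. The same shares over all tested genes are not given, so these counts have no background beside them. C1qtnf7 reached 75.7 and 72.9 TPM on day 21 and 114 and 130 TPM on day 26. Saa3 went the other way after day 15, with 14.6 and 45.0 TPM on day 21 and 31.7 and 107 TPM on day 26, levels that remained below day 12. Gm10704 was listed at 0 in all 4 later libraries. The test of whether the step from day 12 to 15 differed from the step from day 15 to 21 called 0 genes by limma, with 1060 at an unadjusted p under 0.05, so no turn of a single gene passed a test, and it called 9 genes without library 3 of day 15.

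None of the 31 tested matrix glycoproteins and proteoglycans was called, but 14 (45.2%) lay higher in both day 15 libraries and 5 (16.1%) lower, and the median log2 change was 0.38. Prelp, a leucine-rich proteoglycan that anchors basement membranes, was at 26.8 and 41.8 TPM on day 12 and 72.5 and 144 TPM on day 15 (log2 change 1.58, SE 0.33, adjusted p = 0.123 by limma). Lum, lumican, which spaces collagen fibrils, was at 1718 and 2161 TPM and then 2781 and 3224 TPM. Dcn, decorin, was at 2805 and 3153 TPM and then 3589 and 4308 TPM, and Fbln5, fibulin of elastic fibres, at 113 and 168 TPM and then 227 and 269 TPM. Tnc, tenascin C of provisional wound matrix, lay the other way at 202 and 224 TPM and then 126 and 128 TPM (log2 change -0.74, SE 0.14, adjusted p = 0.102). Of the 20 collagens 4 lay higher and 2 lower, close to the shares of all genes, and their median of 0.07 turned negative without library 2 of day 12. Col14a1, a fibril-associated collagen, was at 91.5 and 129 TPM and then 205 and 211 TPM, and Col8a1, a short-chain collagen, at 129 and 188 TPM and then 239 and 303 TPM. Among the 19 genes of collagen modification 4 lay higher and 2 lower, and Serpinh1, the collagen chaperone, was at 936 and 1142 TPM and then 2193 and 1755 TPM (log2 change 0.92, SE 0.18, adjusted p = 0.103), with Loxl4, a lysyl oxidase that crosslinks collagen, at 7.23 and 11.6 TPM and then 23.7 and 20.8 TPM. The 27 proteases and inhibitors were split evenly, 7 higher and 7 lower. Mmp9, gelatinase B, was at 66.2 and 62.9 TPM and then 14.7 and 21.7 TPM (log2 change -1.80, SE 0.36, adjusted p = 0.111), while Mmp3, stromelysin, was at 124 and 70.8 TPM and then 227 and 191 TPM.

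Signalling genes are ordered here by pathway, and none of their members was called. Hedgehog ligands bind PTCH receptors and release the GLI factors, which in turn switch on Gli1 and Ptch1. Of 12 tested Hedgehog genes 6 lay higher in both day 15 libraries and 0 lower, with a median log2 change of 0.57. Cdon and Boc, coreceptors for the ligand, were at 10.5 and 11.6 TPM and then 18.0 and 16.4 TPM, and at 11.8 and 15.7 TPM and then 23.1 and 25.5 TPM. Gli1, the target factor, was at 0.69 and 0.82 TPM and then 7.35 and 1.43 TPM, and Ptch1, the main receptor, at 1.10 and 1.81 TPM and then 7.82 and 2.02 TPM. For these last 2 genes library 1 of day 15, which also held the most Schwann cell transcripts, was high and library 3 was near day 12, and the part of those cells was not tested. Shh, a ligand, was at 0 in the libraries of both days.

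Wnt ligands bind frizzled and LRP receptors, and secreted antagonists and feedback inhibitors hold the signal in check. Of 41 Wnt genes 17 (41.5%) lay higher in both libraries and 4 (9.76%) lower, with a median log2 change of 0.29. Among feedback inhibitors and targets, Nkd1 was at 19.8 and 24.1 TPM on day 12 and 54.7 and 35.7 TPM on day 15 (log2 change 0.98, SE 0.22, adjusted p = 0.155 by limma), Nkd2 at 28.8 and 34.3 TPM and then 83.6 and 42.8 TPM, and Axin2 at 3.77 and 4.49 TPM and then 8.85 and 5.87 TPM. Lgr5, a receptor for R-spondin, was at 14.9 and 19.95 TPM and then 29.4 and 42.6 TPM. Sfrp4, a secreted antagonist, was at 5.06 and 17.1 TPM and then 27.2 and 30.6 TPM. Among ligands, Wnt2b was at 3.92 and 4.50 TPM and then 1.18 and 1.82 TPM. The libraries of the days were apart for each of these genes, of which all but Nkd1 and Wnt2b were chosen after their values were seen. Wisp2, a CCN family matricellular gene of the list, was at 62.2 and 46.6 TPM and then 76.3 and 138 TPM.

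The BMP and TGF-beta lists held members on both sides. Of 29 BMP genes 10 (34.5%) lay higher and 6 (20.7%) lower, beside 19.0% and 17.8% over all tested genes. Bmp7, a ligand, was at 1.61 and 0.98 TPM on day 12 and 8.62 and 2.93 TPM on day 15. Grem1, a secreted antagonist, was at 24.6 and 18.0 TPM and then 8.58 and 12.6 TPM. Bmp4, another ligand, was at 4.77 and 8.07 TPM and then 5.04 and 8.88 TPM, with libraries that overlapped. Of 24 TGF-beta genes 9 (37.5%) lay higher and 7 (29.2%) lower. Ctgf, a matricellular target, was at 36.9 and 30.8 TPM and then 12.1 and 12.1 TPM (log2 change -1.40, SE 0.28, adjusted p = 0.115 by limma), and Tgfbi, a secreted target, was at 316 and 289 TPM and then 102 and 178 TPM. Among 35 growth factor genes 9 (25.7%) lay higher and 12 (34.3%) lower. Fgf7, a mesenchymal factor for keratinocytes, was at 11.1 and 6.30 TPM and then 2.40 and 2.02 TPM, and Igfbp2, which binds IGFs, was at 772 and 1147 TPM and then 1906 and 3423 TPM (log2 change 1.44, SE 0.32, adjusted p = 0.144).

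Regulators of fat cell formation lay higher more often than lower on day 15, and markers of mature fat were few. C/EBP and KLF factors and Pparg drive preadipocytes towards fat cells, and Zfp423 marks preadipocytes. Of 29 adipogenic regulators none was called, 12 (41.4%) lay higher in both day 15 libraries and 4 (13.8%) lower, and the median log2 change was 0.25. Cebpd, an early C/EBP factor that also responds to inflammation, was at 103 and 106 TPM on day 12 and 186 and 268 TPM on day 15 (log2 change 1.09, SE 0.25, adjusted p = 0.164 by limma). Prdm16, a regulator of beige and brown fat, was at 0.98 and 1.17 TPM and then 7.89 and 2.94 TPM, and library 1 again held the higher value. Zfp423 was at 4.55 and 3.92 TPM and then 5.94 and 6.43 TPM (log2 change 0.46, SE 0.27, adjusted p = 0.761). Pparg, the master regulator, was at 4.55 and 3.44 TPM and then 6.10 and 2.86 TPM and its libraries overlapped. Cebpa, a late C/EBP factor, was at 16.6 and 16.8 TPM and then 12.1 and 10.3 TPM. Of the 8 adipocyte markers 2 were tested, Fabp4 and Lipe, and both overlapped between the days: Fabp4, a fatty acid binding protein that endothelium and macrophages also make, was at 79.6 and 62.7 TPM and then 68.4 and 33.1 TPM. Cidec and Lep were at 0 in the libraries of both days. Of 24 adipocyte and lipid genes Fabp5 fell, 7 lay higher and 4 lower.

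Of 29 dermal lineage and progenitor genes 10 (34.5%) lay higher in both day 15 libraries, 2 (6.90%) lay lower and 17 overlapped, with none called and a median log2 change of 0.20. Twist2, a transcription factor of the dermis, was at 118 and 155 TPM on day 12 and 253 and 253 TPM on day 15 (log2 change 0.90, SE 0.17, adjusted p = 0.102 by limma). Pi16, a marker of fibroblast progenitors around vessels and in fascia, was at 4.44 and 10.1 TPM and then 20.1 and 44.3 TPM (log2 change 1.99, SE 0.42, adjusted p = 0.125). Dpt, dermatopontin, was at 686 and 909 TPM and then 1389 and 1387 TPM, Dpp4, a surface peptidase of papillary and fascia fibroblasts, at 6.43 and 13.8 TPM and then 19.2 and 21.1 TPM, and Cd34, a surface sialomucin, at 39.99 and 80.4 TPM and then 94.8 and 116 TPM. In all 5 genes both day 15 libraries were above both of day 12. Pdgfra, a surface receptor of fibroblasts, was at 29.3 and 34.3 TPM and then 36.3 and 32.2 TPM and overlapped. Osr2, a mesenchymal zinc finger factor, was at 87.0 and 135 TPM and then 230 and 248 TPM. The 50 mesenchymal and positional transcription factors were nevertheless split, 12 (24%) higher and 14 (28%) lower. Of 22 dermal papilla genes 8 (36.4%) lay higher and 3 (13.6%) lower. Among 38 neural and axon guidance genes 13 (34.2%) lay higher and 7 (18.4%) lower, the latter near the 17.8% over all tested genes. Sema3b, a secreted semaphorin, was at 55.0 and 83.6 TPM and then 164 and 153 TPM (log2 change 1.22, SE 0.20, adjusted p = 0.0831 by limma). Slit2, a guidance ligand, was at 8.40 and 8.31 TPM and then 18.8 and 15.6 TPM.

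Of 27 retinoid and detoxification genes none was called, 9 lay higher and 8 lower. Adh1, which rose, is not on this list, while Hmox1, given after the macrophage markers, is. Stra6, the cell surface receptor that takes up retinol from its carrier, was at 51.6 and 55.9 TPM on day 12 and 1.52 and 10.9 TPM on day 15 (log2 change -3.32, SE 0.60, adjusted p = 0.10 by limma). Cyp26b1, which breaks down retinoic acid, was at 11.7 and 13.5 TPM and then 29.3 and 22.2 TPM, and Rarres2, the adipokine chemerin, was at 185 and 218 TPM and then 359 and 316 TPM. The libraries of the days were apart for each of these genes.

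None of 40 mitosis genes was called, 0 lay higher in both day 15 libraries and 16 (40%) lower, with a median log2 change of -0.21, and of 42 DNA replication genes 1 lay higher and 17 (40.5%) lower, with a median of -0.22. Cdc20, an activator of the anaphase complex, was at 53.6 and 63.8 TPM on day 12 and 46.5 and 33.8 TPM on day 15 (log2 change -0.55, SE 0.24, adjusted p = 0.572 by limma). Mki67, the proliferation marker Ki-67, was at 6.10 and 6.27 TPM and then 6.03 and 4.14 TPM. No mitosis gene reached an unadjusted p under 0.05, and the log2 changes on the mitosis list ran from -0.56 to 0.16. Of 18 cell cycle inhibitors and related genes 12 (66.7%) lay higher and 1 (5.56%) lower. Gadd45g, a growth arrest gene, was at 267 and 334 TPM and then 423 and 585 TPM, and Cdkn2c, an inhibitor of CDK4 and CDK6, was at 31.3 and 30.1 TPM and then 66.0 and 41.5 TPM. Cdkn1c, an imprinted inhibitor, was the member that lay lower, at 179 and 160 TPM and then 95.5 and 117 TPM.

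Cdkn1c belongs with the imprinted genes, many of which are growth genes of the fetus. Of 22 imprinted genes none was called, 1 lay higher and 7 (31.8%) lower, and the median log2 change was -0.28. Igf2, a fetal growth factor, was at 99.2 and 184 TPM on day 12 and 54.2 and 60.1 TPM on day 15 (log2 change -1.23, SE 0.32, adjusted p = 0.217 by limma). Mest, a hydrolase-like gene, was at 576 and 603 TPM and then 271 and 385 TPM. Of 34 glycolysis and hypoxia genes 16 (47.1%) lay lower and 2 (5.88%) higher. Pkm, pyruvate kinase, was at 490 and 432 TPM and then 319 and 310 TPM, Slc2a1, the glucose transporter GLUT1, at 20.9 and 18.2 TPM and then 13.0 and 10.7 TPM, and Slc16a3, a lactate exporter, at 25.02 and 33.0 TPM and then 11.8 and 17.1 TPM. Of 50 nuclear genes of oxidative phosphorylation 19 lay lower and 4 higher, with a median log2 change of only -0.05, and of 67 ribosomal protein genes 17 lay lower and 3 higher, with a median of -0.08. Of 26 heat shock chaperones 9 lay lower and 3 higher, including Hspa1b, an inducible Hsp70 with a near-identical copy, at 15.25 and 21.7 TPM and then 7.08 and 4.40 TPM, and Hspa8, the constitutive Hsp70, at 890 and 897 TPM and then 717 and 565 TPM.

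Immediate early and stress genes had the highest share above day 12 of the pathway lists. These genes respond to signals within minutes and are also known to be induced by enzyme digestion of tissue. Of 28 tested none was called, 21 (75.0%) lay higher in both day 15 libraries and 2 (7.14%) lower, and the median log2 change was 0.68. Nr4a1, an orphan nuclear receptor, was at 40.8 and 44.0 TPM on day 12 and 122 and 268 TPM on day 15 (log2 change 2.07, SE 0.56, adjusted p = 0.240 by limma). Atf3, a stress-induced factor, was at 35.4 and 31.9 TPM and then 94.0 and 93.3 TPM. Fos, an AP-1 subunit, was at 1101 and 1142 TPM and then 2329 and 2846 TPM (log2 change 1.20, SE 0.62, adjusted p = 0.674), and Egr1, an early zinc finger factor, at 309 and 317 TPM and then 478 and 747 TPM. The libraries of days 12 and 15 were apart for each of these, while the later libraries spread widely, with Fos at 3899 and 723 TPM in the 2 libraries of day 26.

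**Figure D4:**
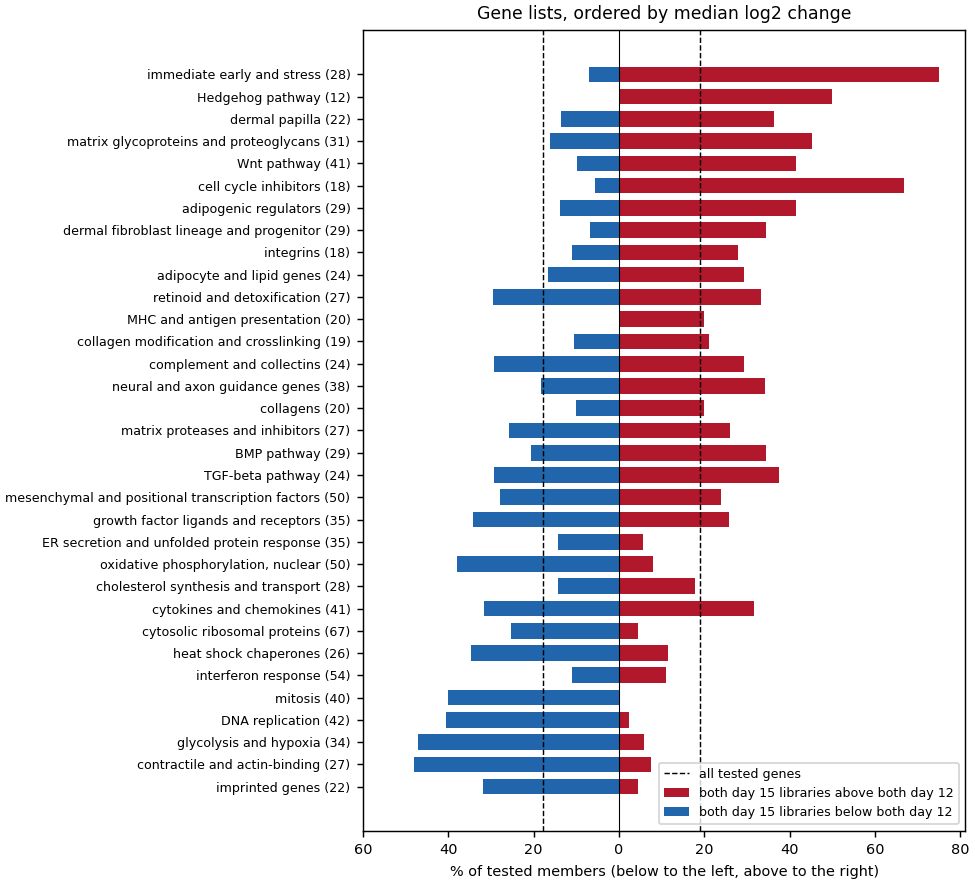
Share of the tested members of each pathway list (number in brackets) for which both day 15 libraries were above both day 12 libraries (red, right) or below them (blue, left), with dashed lines at the shares over all tested genes, 19.0% and 17.8%. Immediate early and stress genes reach 75.0% to the right, and contractile genes (48.1%) and glycolysis and hypoxia genes (47.1%) lie farthest to the left.

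**Figure D5:**
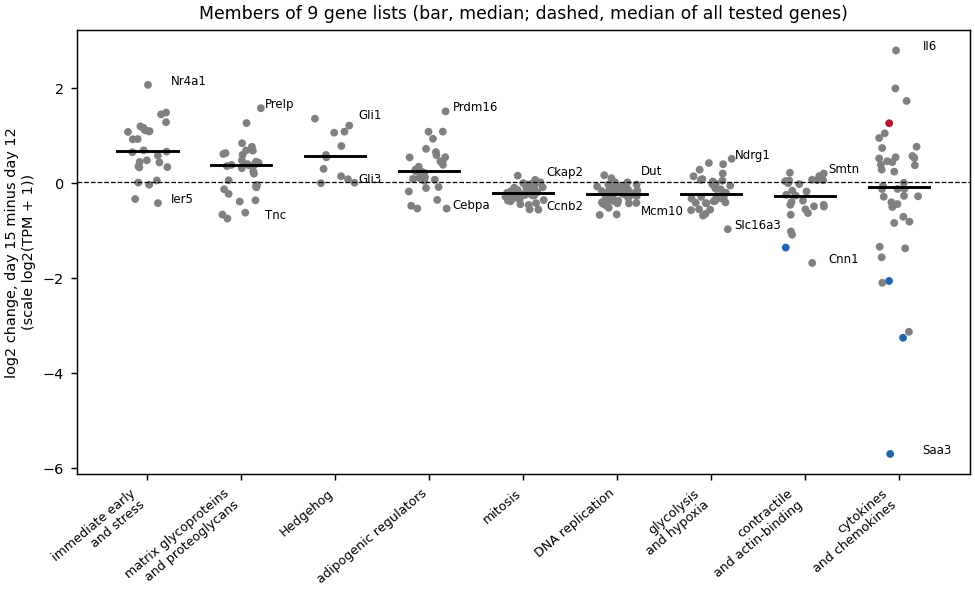
Log2 change from day 12 to day 15 (y axis, scale log2(TPM + 1)) of each tested member of 9 lists, with the median of each list as a bar and the median of all tested genes, 0.02, dashed. Red and blue points are the called genes; Saa3 at -5.70 lies farthest from 0, and the mitosis genes lie closest together.

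Interferon response genes mostly overlapped between the days, and here the day 15 libraries differed from each other. Of 54 interferon response genes 6 lay higher, 6 lower and 42 overlapped, and the median log2 change of -0.17 became 0.26 without library 1 of day 15. Gbp2, an interferon-induced GTPase, was at 30.3 and 38.2 TPM on day 12 and 46.0 and 61.7 TPM on day 15 (log2 change 0.63, SE 0.22, adjusted p = 0.405 by limma). Among 24 complement and collectin genes, a list that does not hold the called collectin Colec11, 7 lay higher and 7 lower, and C2, a protease of the classical pathway, was at 56.0 and 69.5 TPM and then 109 and 119 TPM (log2 change 0.86, SE 0.17, adjusted p = 0.105 by limma), whereas Cfp, properdin, a protein made by myeloid cells, was at 89.7 and 58.1 TPM and then 26.6 and 33.7 TPM.

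Markers of cells outside the fibroblast lineage also differed between the days. Keratinocyte markers lay higher: of 15 tested 1 rose, 12 lay higher in both libraries and 0 lower, and their summed level went from 9.03 and 10.96 TPM to 50.9 and 119 TPM. Krt5 was at 0.35 TPM and 0 on day 12 and at 4.12 and 10.9 TPM on day 15 (log2 change 2.75, SE 0.40, adjusted p = 0.0484 by limma), and Krt14, its partner keratin, was at 1.47 and 0.91 TPM and then 11.4 and 38.6 TPM (adjusted p = 0.0583). Ivl was at 0 in the libraries of both days. Mast cell markers lay higher for 6 of 8, with sums of 10.3 and 14.4 TPM and then 70.2 and 53.6 TPM. Mcpt4, a mast cell protease, was at 1.55 and 3.46 TPM and then 18.8 and 16.5 TPM (log2 change 2.47, SE 0.54, adjusted p = 0.142). Schwann cell and melanocyte markers lay higher for 6 of 13, with sums of 166 and 331 TPM on day 12 and 865 TPM in library 1 and 325 TPM in library 3 of day 15, so library 1 alone stood above day 12. Mbp, a myelin protein, was at 41.3 and 74.4 TPM and then 200.5 and 78.0 TPM.

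Red cell and platelet markers lay lower for 5 of 7 and higher for 1. Their sums were 186 and 99.3 TPM on day 12 and 17.4 and 28.9 TPM on day 15. Hba-a1, alpha globin, was at 52.1 and 33.8 TPM and then 1.39 and 7.70 TPM, and Hba-a1 has a near-identical copy. Ppbp, a platelet chemokine, was at 2.65 and 2.22 TPM and then 0.10 and 0.33 TPM. Itga2b, the marker of the list that lay higher, was at 5.62 and 4.90 TPM and then 8.79 and 9.44 TPM. Of 15 endothelial markers 4 lay higher and 1 lower, with sums of 341 and 279 TPM and then 422 and 267 TPM, and of 5 tested lymphocyte and granulocyte markers 2 lay lower. Ly6g was at 0 in the libraries of both days. All tested leukocyte, keratinocyte and red cell markers are transcripts of cell types that the sort was not aimed at, and how many such cells each library held cannot be read from TPM.

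The libraries also differed in sex-linked transcripts. Xist, the noncoding RNA that silences an X chromosome in female cells, was at 0.01 TPM and 0 on day 12 and at 30.7 and 5.54 TPM on day 15 (log2 change 3.84, SE 0.81, adjusted p = 0.126 by limma). Ddx3y, a helicase gene on the Y chromosome, was at 26.8 and 24.8 TPM on day 12, at 0 in library 1 of day 15 and at 23.95 TPM in library 3. Eif2s3y, another Y-linked gene, was at 40.1 and 33.2 TPM and then 0 and 25.7 TPM. Library 1 of day 15 thus had Xist without these Y-linked transcripts, library 3 had both, and the day 12 libraries had Y-linked transcripts almost without Xist. In this comparison, day therefore cannot be told apart from the sex of the mice.

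The named genes lie at these positions on GRCm38 (mm10), from GENCODE vM21, in which all 159 identifiers looked up were found. Spp1 (ENSMUSG00000029304.10) is at chr5:104435118-104441050, Saa3 (ENSMUSG00000040026.7) at chr7:46711998-46715700, Ccl9 (ENSMUSG00000019122.8) at chr11:83572919-83578636 and Adam8 (ENSMUSG00000025473.12) at chr7:139978932-139992562. Fabp5 (ENSMUSG00000027533.10) is at chr3:10012548-10016607, Pla2g7 (ENSMUSG00000023913.13) at chr17:43568098-43612201 and Actg2 (ENSMUSG00000059430.10) at chr6:83512905-83536265. Of the genes that rose, C1qtnf7 (ENSMUSG00000061535.10) is at chr5:43515538-43618803, Dpep1 (ENSMUSG00000019278.4) at chr8:123186242-123201812, Adh1 (ENSMUSG00000074207.6) at chr3:138260991-138290698 and Cxcl14 (ENSMUSG00000021508.10) at chr13:56288643-56296551.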

How the data were processed

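The authors deposited 1 table of all genes with a signal per gene and library. After subtracting 1, each column of the deposited signal summed to about 1000000, so the authors' values were taken as TPM with 1 added. RSEM 1.12.2 and mm10 are named in the submitters' processing notes, while aligner and annotation were not given in the sources used here. Because SMART-seq2 is unstranded, reads of a gene and of an antisense neighbour are counted alike. The authors' cluster tables were not used here. The headings of the value columns give the day and a number unlike the labels' replicate numbers, so a column was tied to its day and not to a sample. Genes were followed by identifier, since 128 entries repeat a symbol.

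TPM were taken to log2(TPM + 1), which understates the change of genes with few TPM, and a gene had to reach 1 TPM in 2 or more of 8 libraries. Limma 3.58.1 (R 4.3.3, trend) was run over all 8 libraries with day as a 4-level factor, with 4 residual and 4.76 prior degrees of freedom, and the contrast of day 15 against day 12 was tested 2-sided with Benjamini-Hochberg adjustment over 15062 genes. An adjusted p under 0.05 counted as called, and rose and fell refer to called genes. The script was checked on simulated data. Lists are described by counts and medians only. The alternatives changed the pseudocount, the filter, the scaling, the prior, the gene types and the libraries kept.

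The members and lists were chosen with earlier results of these data known. Genes were named by a rule: called genes with libraries apart and a mean level at or above the median (8 higher and 6 lower), leaving out marker genes and gene models, then up to 4 called members of each pathway list, or, where none was called, the 2 of lowest p, 2 of each marker list, and Tagln, Acta2, Pdgfra, Pparg, Zfp423, Bmp4, Mki67, Xist and Ddx3y. Not every gene under the rule is described. The other genes named were chosen after their values were seen. These are the other called genes described, the further members named in the lists, and Hp, Marco and Arg1. Some results, among them those of 1 called gene that fell, are not reported here. Promoter windows are from RefSeq (GRCm38.p6) and gene positions from GENCODE vM21.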

Additional observations from a re-analysis of the deposited data

How the results depend on the processing

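Against 13 genes higher and 11 lower, a pseudocount of 0.1 gave 23 and 8, one of 5 gave 11 and 24, no filter on low values gave 1 and 2, at least 5 TPM in 2 libraries 14 and 9, quantile normalization 1 and 3, median-ratio scaling 1 and 2, a robust prior 18 and 16, protein-coding genes alone 19 and 19, and the 4 libraries of both days alone 0 and 0. Leaving out 1 library in turn gave 0 to 1 genes higher and 0 to 17 lower, with 0 and 1 without library 2 of day 12, 0 and 2 without library 3 of day 12, 0 and 0 without library 1 of day 15, and 1 and 17 without library 3 of day 15. The lone library of a day is there assumed to vary like the other days. The difference between the steps was called for 0 genes in each of the other alternatives fitted and for 0 to 9 with 1 library left out; it has no value from the 4 libraries alone. The causes were not tested. Every one of the 24 genes that was still tested kept its direction in every alternative. The alternatives reuse the libraries that chose these genes, so this is no independent check. The share of higher among the calls was 54.2%, and it ranged from 25% to 74.2% in the alternatives that used all 8 libraries. With 1 library left out, signs turned for Pdgfra (from -0.0033 to 0.21), Bmp4 (from -0.26 to 0.45) and Pparg (from -0.36 to 0.52), none of which was called. No paired analysis was possible because the value columns carry numbers that are not the labels' replicate numbers, and the columns of days 12 and 15 share only the number 3. With depth unknown, low values carry a counting error that cannot be given.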

Other observations

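No member of the following lists was called. Of 35 genes of ER secretion and the unfolded protein response 2 lay higher in both day 15 libraries, 5 lower and 28 overlapped. Ddit3, the stress factor CHOP, was at 45.2 and 36.4 TPM on day 12 and 55.5 and 64.2 TPM on day 15, and Sdf2l1, an ER chaperone component, was at 72.2 and 86.4 TPM and then 53.9 and 54.5 TPM. Of 28 cholesterol genes 5 (17.9%) lay higher and 4 (14.3%) lower, with Abca1, a cholesterol exporter, at 15.7 and 14.6 TPM and then 21.1 and 18.97 TPM, and Fdps, farnesyl diphosphate synthase, at 67.9 and 72.2 TPM and then 54.7 and 52.0 TPM. These shares are near those over all tested genes, 19.0% and 17.8%.

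Of 20 genes of MHC class I and antigen presentation 4 (20%) lay higher and 0 lower, beside 19.0% and 17.8% over all tested genes. H2-M3, among the 4, was at 22.5 and 21.9 TPM and then 29.7 and 31.3 TPM. Of 18 integrins 5 lay higher and 2 lower. Itgbl1, an integrin-like secreted protein, was at 162 and 222 TPM and then 273 and 417 TPM. Igfbp5, which binds IGFs, was at 82.3 and 103 TPM and then 154 and 175 TPM and returned to 111 and 81.6 TPM on day 26. Of 5 tested skeletal muscle markers 2 lay higher, with summed levels of 7.57 and 5.16 TPM and then 26.5 and 6.97 TPM, the higher again in library 1 of day 15, and Myod1, Myog and Pax7 were at 0 in the libraries of both days.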
